A study of Mus musculus with 6 samples.

Results

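Glycolysis and lactate exchange were followed in mouse sciatic nerve through 10 genes, Hk1, Hk2, Pfkl, Pfkp, Aldoc, Eno1, Ldha, Ldhb, Slc16a1 and Pdk4. The members were taken by symbol from the 24015 genes of the count files, and all 10 were found. Of these, 9 had at least 1 read, and the same 9 were among the 11371 genes with enough reads to be tested.

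The series measured RNA of whole sciatic nerve by sequencing to ask what loss of Rnf40, a ubiquitin ligase subunit for histone H2B, does to Schwann cells during myelination. The control group held 3 libraries of genotype Rnf40 fl/fl, with floxed alleles and no Cre. The mutant group, Rnf40 ΔSC, held 3 libraries of genotype Dhh::Cre, Rnf40 fl/fl. All mice were at postnatal day 14. The labels give a mixed 129SvJ/C57Bl/6J background, whereas the study's methods name C3H in place of 129SvJ. The Dhh promoter drives Cre in developing Schwann cells, so other cell types of the nerve were not targeted, and each library was a pool of 3 nerves. A Cre-positive control group was not analysed here.

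The control libraries held 1317167, 1992622 and 2468765 counts in replicates 1 to 3. The Rnf40 ΔSC libraries held 2184268, 1459387 and 2186710 counts. Levels are given as CPM, the reads of a gene per 1000000 reads of the library's total after TMM scaling, which sets the typical gene equal between libraries. At these depths 1 read stood for 0.414 to 0.823 CPM, so members with few reads carried wide counting error.

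Hexokinases trap glucose in the cell, phosphofructokinases set the pace of its breakdown, and aldolases and enolases act further down the path to pyruvate. Lactate dehydrogenase interconverts pyruvate and lactate, the monocarboxylate transporter MCT1, encoded by Slc16a1, carries lactate across membranes, and pyruvate dehydrogenase kinases hold pyruvate back from mitochondria. Schwann cells are known to use glycolysis and to exchange lactate with the axons they surround.

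The promoters of 4 members are shown because Aldoc and Ldha had the smallest adjusted p among the members lower in the mutant and Ldhb and Slc16a1 were the most abundant per length. The sequences are from RefSeq, build GRCm38.p6, and run 5′ to 3′ on the strand of the gene up to the base before its most upstream start in RefSeq. Capitals mark ACGTG, the core of the element that hypoxia-inducible factors bind, searched on both strands, with the palindrome CACGTG counted as 1 place. Ldha is chr7:46845554-46845803 on the plus strand. In mm9 this window is chr7:54100924-54101173, outside exons but within the Ldha gene as annotated there, which starts at 54096845, so it precedes the RefSeq start and not the start in mm9. Slc16a1 is chr3:104638414-104638663 on the plus strand and Ldhb is chr6:142507958-142508207 on the minus strand. Aldoc is chr11:78322823-78322967 on the plus strand and stops 105 bases short of the start, because those bases are annotated as exon in the older build mm9.
Ldha: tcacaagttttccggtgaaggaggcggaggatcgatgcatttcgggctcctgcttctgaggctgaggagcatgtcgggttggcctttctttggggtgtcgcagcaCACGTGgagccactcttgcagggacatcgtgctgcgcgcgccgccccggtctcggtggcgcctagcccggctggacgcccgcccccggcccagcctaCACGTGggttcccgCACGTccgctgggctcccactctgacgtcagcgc
Slc16a1: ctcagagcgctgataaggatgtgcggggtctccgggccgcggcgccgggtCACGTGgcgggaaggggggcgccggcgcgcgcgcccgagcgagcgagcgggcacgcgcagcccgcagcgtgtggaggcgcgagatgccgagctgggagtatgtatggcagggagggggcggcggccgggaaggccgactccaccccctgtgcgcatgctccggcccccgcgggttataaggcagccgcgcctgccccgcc
Ldhb: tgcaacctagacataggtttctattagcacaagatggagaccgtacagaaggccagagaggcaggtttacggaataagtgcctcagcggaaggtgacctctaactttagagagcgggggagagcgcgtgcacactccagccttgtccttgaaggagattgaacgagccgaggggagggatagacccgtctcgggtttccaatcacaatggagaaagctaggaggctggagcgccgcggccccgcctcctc
Aldoc: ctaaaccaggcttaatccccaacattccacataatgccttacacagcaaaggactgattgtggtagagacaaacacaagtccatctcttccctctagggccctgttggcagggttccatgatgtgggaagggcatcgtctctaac

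The Ldha promoter held 3 places with ACGTG, 2 of them as CACGTG. The Slc16a1 promoter held 1, as CACGTG, and the printed Ldhb and Aldoc promoters held none. Hk2, not printed, held 2 places. ACGTG was present in 5444 of 32851 promoter windows of the same table, 16.57%, and in 3 of the 15 windows of the members, a share near that of all windows. GCGNGGGCG, an EGR-type motif also searched on both strands, was present in 1543 windows, 4.697%, and in 2 of the 15, of Pfkp and Eno1. A match is a description of the letters and not evidence of binding.

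Muscle content differed between libraries and is given before the members because several glycolytic genes are also expressed in muscle. The 24 skeletal muscle markers, chosen without any gene of glycolysis or glycogen use, summed to 5875, 4594 and 3393 CPM in control replicates 1 to 3. They summed to 173, 401 and 4363 CPM in Rnf40 ΔSC replicates 1 to 3. Replicate 3 of the mutant thus lay inside the control range, 25.2-fold above replicate 1 and 10.9-fold above replicate 2, and it was above both of them in 24 of 24 markers. Rnf40 ΔSC replicates 1 and 2 were both below every control in 21 of the 24. The markers come from 1 tissue and rise and fall together, so they are not 24 separate observations. The shares of all genes with these 2 patterns were not computed. With all 3 mutant libraries, 7 of 23 markers tested were below every control and 0 above, beside 21.6% and 22% of genes tested. Myh4, the myosin heavy chain of fast fibres and the most abundant marker, had 1711, 1657 and 1571 counts in controls and 58, 46 and 1473 in mutants. The group means of the summed level were 4621 ± 1241 and 1646 ± 2356 CPM (SD, n = 3), with an exact permutation p of 0.2, two-sided, where 3 against 3 cannot go below 0.1. At an adjusted p of 0.05 by edgeR's quasi-likelihood test, 0 of 23 markers tested were lower and 0 higher. The shares of all genes were 16.2% lower and 15.4% higher. At an unadjusted p of 0.05, 0 markers were lower and 0 higher. By DESeq2, 0 and 0 of the 19 it tested passed, and without a filter on low counts 1 of 23 was lower. Without Rnf40 ΔSC replicate 3, 21 of the 23 markers were lower, beside 1992 of the 11499 genes tested. Without any other single library 0 were lower. Replicate 3 was the mutant library with the high muscle sum, so the count without it restates the sums and is no separate support. The muscle level was low in mutant replicates 1 and 2 only, so it was not fully separate from genotype in these libraries. Comparisons with muscle held level are given beside the members.

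Of the 9 members tested, 4 were lower in Rnf40 ΔSC nerves, Hk2, Pfkl, Aldoc and Ldha, against 16.2% of all genes tested. Calls required an adjusted p no greater than 0.05, from edgeR's quasi-likelihood test and Benjamini-Hochberg adjustment over all 11371 genes. No member was higher, a count of 0 also at an unadjusted p of 0.05 and by DESeq2, against 15.4% of all genes. At the study's limits, a log2 change of 0.8 or more in either direction and a mean normalised count of 20 or more, Aldoc was the 1 member lower, against 5.05% of genes lower and 3.73% higher. In 4 members, the same 4 genes, every mutant library was below every control, against 21.6% of genes tested, and in 1, Ldhb, every mutant library was above, against 22%. Leaving out 1 library brought the 4 members lower to 2 without control replicate 1, control replicate 2 or mutant replicate 1, and the 1 member past the study's limits to 3, with Hk2 and Pdk4, without mutant replicate 3. The members' median log2 fold change was −0.39, beside −0.00 over all genes tested. With single libraries left out it ran from −0.74 without mutant replicate 3 to −0.18 without mutant replicate 1. Less RNA of a gene per cell and fewer cells that express it cannot be told apart in bulk tissue.

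The scaling set the sign of small differences among the members. With total counts as the scale, the median of all genes moved by 0.27 (log2), and 880 genes were lower and 3766 higher, beside 1841 and 1756 with TMM. On that scale the members' median was −0.12 beside 0.27 over all genes, and 2 members, Aldoc and Ldha, were lower and 1, Ldhb, was higher. DESeq2 called the same 2 members lower, with 1178 genes lower and 1110 higher overall.

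**Figure D1:**
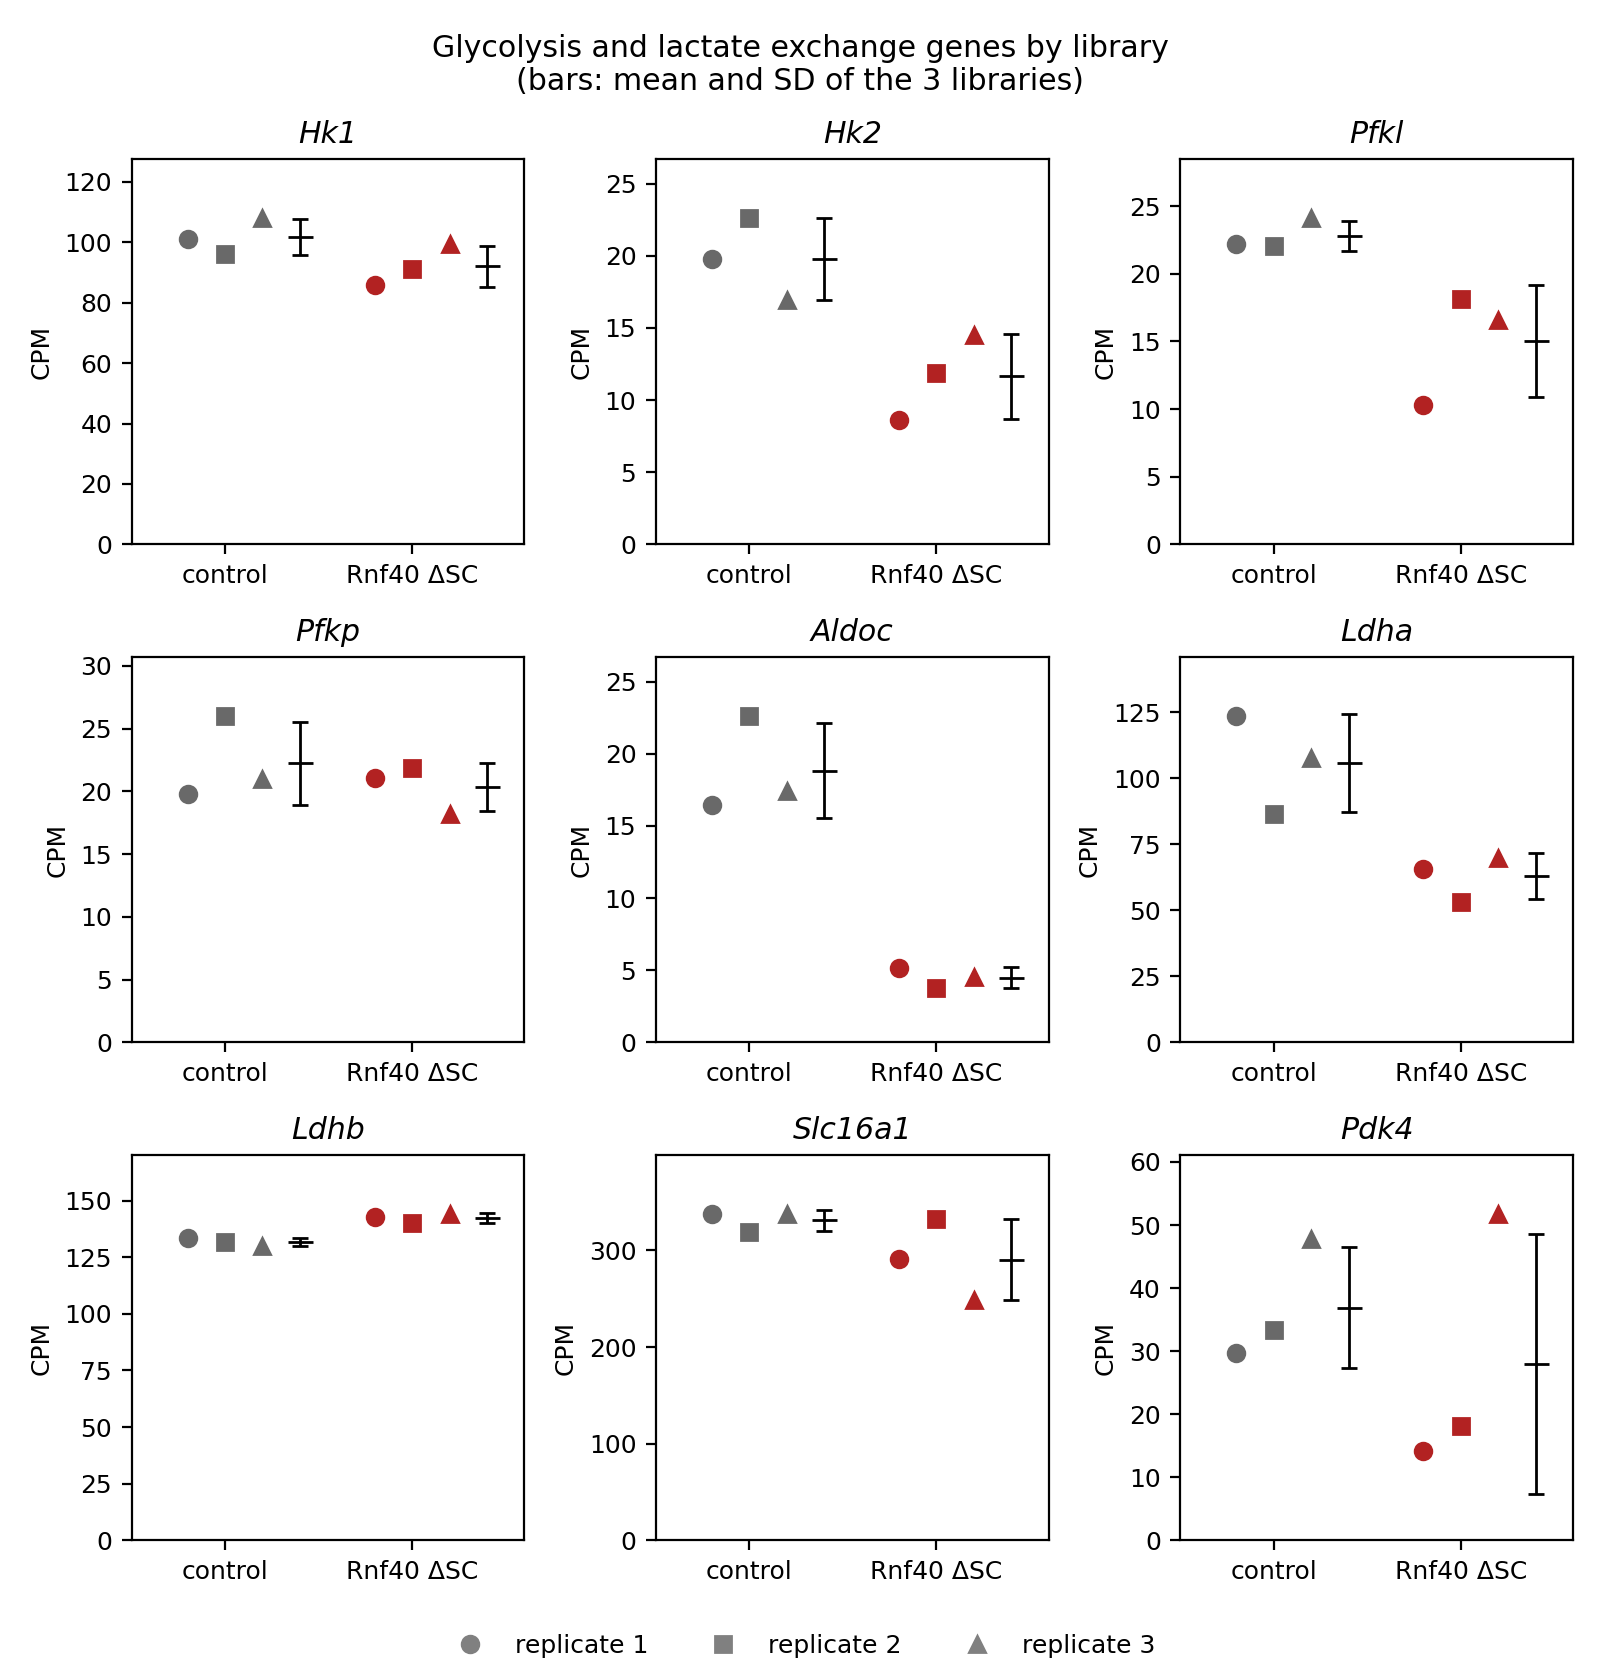
Levels of the 9 members with reads, in CPM with TMM scaling, for 3 control and 3 Rnf40 ΔSC libraries, with points for single libraries and bars for the mean and SD. Aldoc lay at 3.75 to 5.15 CPM in the mutants and 16.5 to 22.6 CPM in the controls, and Pdk4 at 51.7 CPM in mutant replicate 3 and 14.2 and 18.1 CPM in the other mutants.

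Per kilobase of exon, the lactate genes led the members in control nerves. Ldhb stood at 83.8 CPM per kb, Slc16a1 at 74.8 and Ldha at 35.5. Hk1 at 11.9 and Pdk4 at 10.5 CPM per kb did not differ beyond their spread over libraries, nor did Aldoc at 5.77 and Pfkl at 5.19. Hk2 at 3.31 and Pfkp at 2.37 CPM per kb were lowest of the 9. In Rnf40 ΔSC nerves Ldhb at 90.7 and Slc16a1 at 65.7 CPM per kb again led, Ldha followed at 21.1, and Aldoc was lowest at 1.37. The summed CPM of the members was 804, 759 and 810 in controls and 645, 691 and 667 in mutants.

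Hk1, the hexokinase of most tissues that binds mitochondria, had 123, 170 and 242 counts in controls and 200, 146 and 240 in mutants. The means were 102 ± 6.00 and 92.1 ± 6.77 CPM, and the libraries overlapped. Its log2 fold change was −0.15 (SE 0.11, adjusted p = 0.352) and turned to 0.12 with total-count scaling. Hk1 lies at mm9 chr10:61731603-61842656 on the minus strand, where an exon overlaps the gene 2210417K05Rik on the other strand, and the strand setting of the counts is not stated.

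Hk2, the insulin-responsive hexokinase abundant in skeletal muscle, had 24, 40 and 38 counts in controls and 20, 19 and 35 in mutants. These were 19.8, 22.6 and 17.0 CPM against 8.59, 11.9 and 14.5 CPM. Every mutant library was below every control, with the mutant library rich in muscle, replicate 3, closest to them. Hk2 was 1.70-fold lower (log2 fold change −0.75, SE 0.26, adjusted p = 0.0244). With the muscle level as a covariate the value was −0.39 (adjusted p = 0.428), and among the 4 libraries rich in muscle, a comparison chosen after seeing the data with 1 mutant library and the spread of controls, it was −0.43 (adjusted p = 0.373). Chi-square per degree of freedom was 1.78 to 1.91 between control replicates and 2.78 to 5.21 between mutant replicates, so for no gene is a p under 0.05 from those 4 libraries read as a call. The call was also lost without control replicate 1 (−0.75, adjusted p = 0.0529), control replicate 2 (−0.64, 0.127) or mutant replicate 1 (−0.54, 0.150). It was lost as well with DESeq2 (−0.75, 0.152) and with total-count scaling (−0.48, 0.144), within a range of 0.00905 to 0.428 over 14 alternatives.

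Pfkl, the liver-type phosphofructokinase, had 27, 39 and 54 counts in controls and 24, 29 and 40 in mutants. The means were 22.8 ± 1.14 and 15.0 ± 4.14 CPM, and no mutant library reached the control range. Pfkl fell by a log2 value of 0.63 (SE 0.24, adjusted p = 0.0388). This call was lost with the muscle covariate (−0.41, adjusted p = 0.362), with DESeq2 (−0.61, 0.220) and with total-count scaling (−0.36, 0.238). In the 4 libraries rich in muscle the value was −0.47. The call was lost as well without control replicate 1 (−0.65, 0.0667) or control replicate 2 (−0.66, 0.0785). Leaving out control replicate 3 (−0.58, 0.144) or mutant replicate 1 (−0.40, 0.248) also lost it. The adjusted p spanned 0.0263 to 0.362 over 14 alternatives.

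Pfkp, the platelet-type phosphofructokinase, had 24, 46 and 47 counts in controls and 49, 35 and 44 in mutants. Its mean was 22.2 ± 3.30 CPM in controls and 20.4 ± 1.92 CPM in mutants, with overlapping libraries. The log2 fold change was −0.14 (SE 0.22, adjusted p = 0.657), and 0.13 with total-count scaling. An exon of Pfkp overlaps Pitrm1 on the other strand.

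Aldoc, the aldolase first known from brain, differed most among the members. It had 20, 40 and 39 counts in controls and 12, 6 and 11 in mutants, which is 16.5, 22.6 and 17.4 CPM against 5.15, 3.75 and 4.55 CPM. The mutant library rich in muscle lay between the other mutants. Aldoc was 4.20-fold lower (log2 fold change −2.04, 95% confidence interval −2.68 to −1.40, SE 0.32, adjusted p = 3.24e-06). The value was −2.08 with the muscle covariate and −2.04 in the 4 libraries rich in muscle. The call held in the 12 alternatives with more than 1 mutant library in which Aldoc could be tested, the muscle covariate included, at adjusted p of 2.22e-08 to 2.82e-04. All 50-base windows in exons of Aldoc are unique in the genome.

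Eno1, the enolase of most tissues, had 0 counts in each of the 6 libraries. A count of 0 allows up to 3 counts, or 1.24 to 2.47 CPM depending on the library, for counting error alone. Of its 50-base exon windows 79.27% are unique in the genome, and why the symbol had no reads was not tested. Enolase counts therefore came from Eno2, the neuronal form, with 29, 43 and 47 counts in controls and 60, 27 and 56 in mutants, and from Eno3, the muscle form. Eno1, Eno2 and Eno3 together had 144, 162 and 185 counts in controls and 83, 44 and 198 in mutants, highest among mutants in replicate 3, a library of nearly the same depth as replicate 1.

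Ldha encodes the lactate dehydrogenase subunit that favours lactate formation. It had 150, 153 and 241 counts in controls and 153, 85 and 169 in mutants. These were 124, 86.4 and 108 CPM against 65.7, 53.1 and 69.9 CPM, with every mutant below every control. Ldha was 1.68-fold lower (log2 fold change −0.72, SE 0.13, adjusted p = 4.58e-05). The call held in each of the 13 alternatives with more than 1 mutant library, with log2 fold changes of −0.85 to −0.46 and adjusted p of 2.49e-07 to 0.00741. Within those, the muscle covariate gave −0.61 (adjusted p = 0.00545). The log2 fold change in the 4 libraries rich in muscle was −0.58.

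Ldhb encodes the subunit that favours use of lactate. It had 162, 233 and 291 counts in controls and 333, 224 and 348 in mutants, or 132 ± 1.75 and 142 ± 2.08 CPM. Every mutant library was above every control. The log2 fold change was 0.11 (SE 0.10, adjusted p = 0.415), and with total-count scaling Ldhb passed as higher (0.38, adjusted p = 0.00264), within a range of 0.00264 to 0.611 over 14 alternatives.

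The Ldhb share of the reads of both subunits does not depend on the scaling between libraries. It was 51.9, 60.4 and 54.7% in controls and 68.5, 72.5 and 67.3% in mutants, without overlap. The difference was 13.8 percentage points, from 55.7 ± 4.30 to 69.4 ± 2.71% (SD, n = 3), with an exact two-sided permutation p of 0.1, the smallest possible here, and 0.15 after Benjamini-Hochberg adjustment over 3 shares. Of the 50-base exon windows 83.01% are unique in the genome for Ldha and 73.25% for Ldhb, which bears on this share and on their levels per kb, since the counts are of uniquely mapped reads. The difference was 11.9 to 16.1 points when single libraries were left out. The Hk2 share of Hk1 and Hk2 reads was 16.3, 19.0 and 13.6% in controls and 9.09, 11.5 and 12.7% in mutants. That share differed by −5.20 points (exact p = 0.1, adjusted 0.15), and mutant replicate 3 was the closest to the controls. The Pfkp share of Pfkl and Pfkp reads was 47.1, 54.1 and 46.5% in controls and 67.1, 54.7 and 52.4% in mutants. These overlapped, with a difference of 8.83 points (exact p = 0.2, adjusted 0.2) that became 4.30 points without mutant replicate 1, and 2.55 points with the muscle form Pfkm in the denominator.

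**Figure D2:**
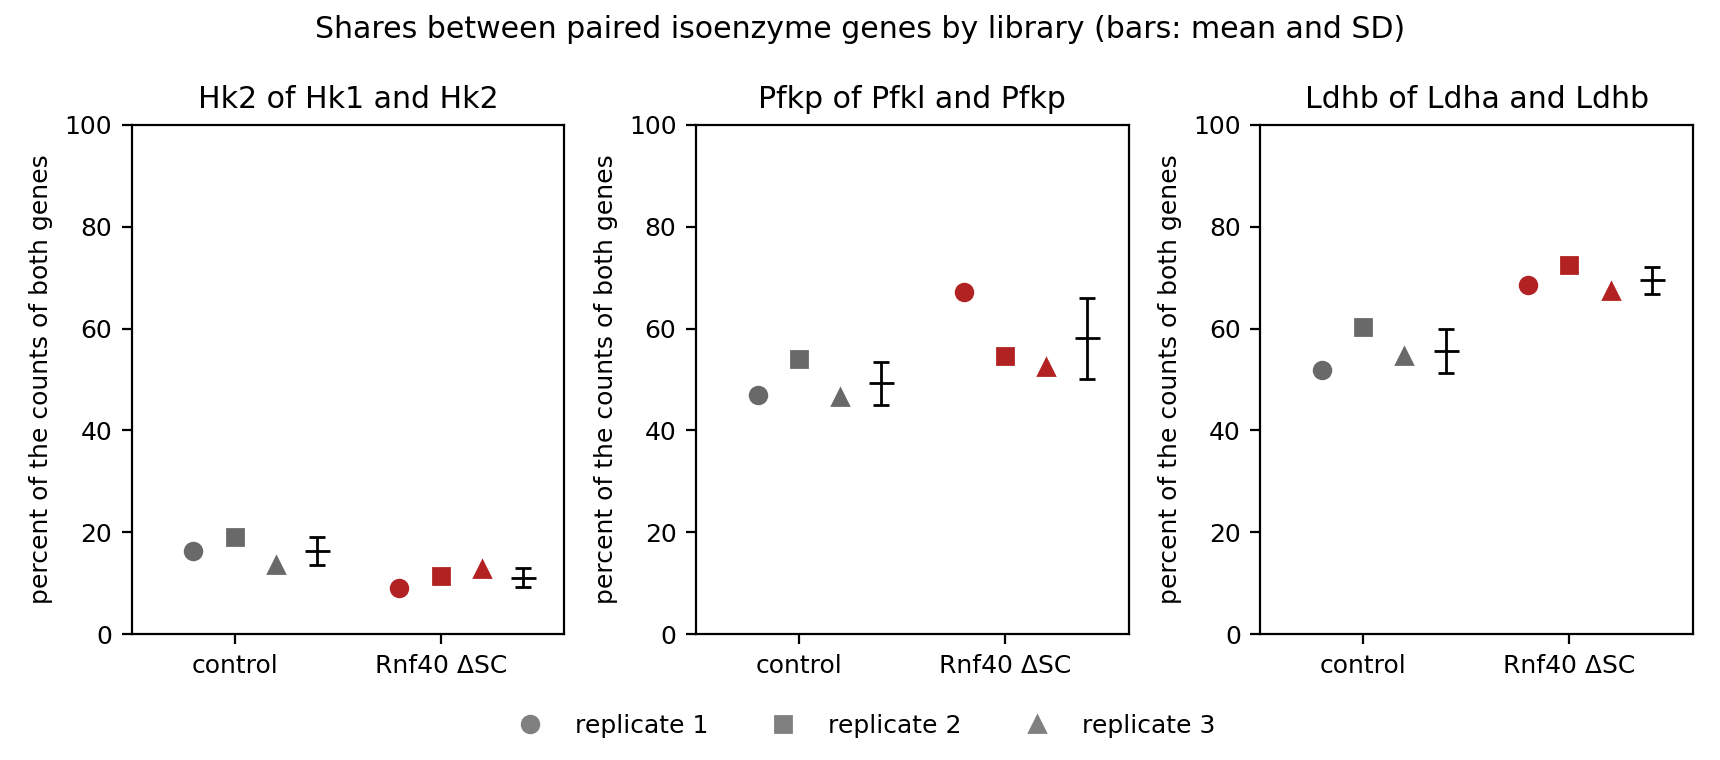
Share of reads, in percent, of Hk2 among Hk1 and Hk2, of Pfkp among Pfkl and Pfkp, and of Ldhb among Ldha and Ldhb, with a point for each library and bars for the mean and SD of 3. The Ldhb share lay at 51.9 to 60.4% in controls and 67.3 to 72.5% in Rnf40 ΔSC nerves.

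Slc16a1, encoding the lactate transporter MCT1, had 410, 564 and 756 counts in controls and 678, 532 and 600 in mutants. These were 338, 319 and 337 CPM against 291, 332 and 248 CPM, and mutant replicate 2 lay within the control range. The log2 fold change was −0.19 (SE 0.10, adjusted p = 0.139), and 0.08 with total-count scaling. Without mutant replicate 3 it was −0.08 (adjusted p = 0.530). Slc16a1 passed as lower with the muscle covariate (−0.37, adjusted p = 0.0206) and without mutant replicate 2 (−0.29, 0.0299), within a range of 0.00698 to 0.580 over 14 alternatives. The lowest of these came from the 4 libraries rich in muscle (−0.41), where the 1 mutant library is replicate 3, the lowest in Slc16a1, and it is not read as a call.

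Pdk4, a kinase that turns pyruvate dehydrogenase off and is abundant in muscle and fat, had 36, 59 and 107 counts in controls and 33, 29 and 125 in mutants. These were 29.6, 33.3 and 47.8 CPM against 14.2, 18.1 and 51.7 CPM. Mutant replicate 3 had the highest level of the 6, and the other mutants the lowest. The log2 fold change was −0.39 (SE 0.60, adjusted p = 0.689) and its 95% confidence interval ran from −2.03 to 1.25. Without mutant replicate 3 the value was −1.25 and passed (adjusted p = 2.60e-05), within a range of 2.60e-05 to 0.972 over 14 alternatives. With the muscle covariate it turned to 0.36 and in the 4 libraries rich in muscle to 0.44. Among controls Pdk4 was highest in replicate 3, the control with the lowest muscle sum, 3393 CPM. The part of muscle in the Pdk4 level of mutant replicate 3 was not tested beyond these comparisons.

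**Figure D3:**
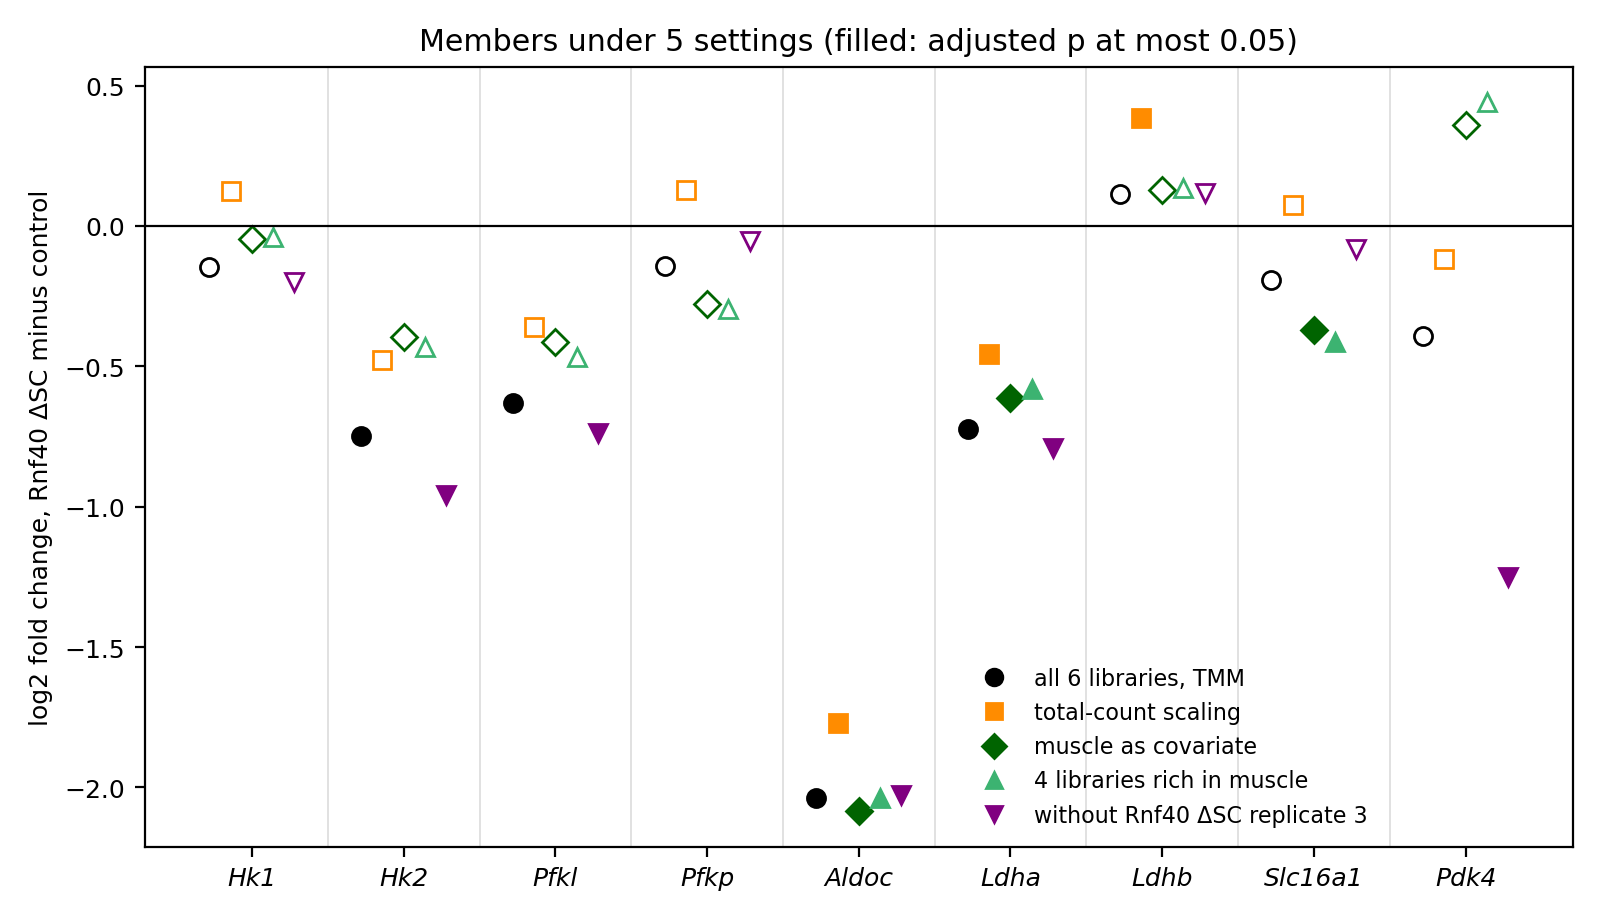
Log2 fold change of 9 members, Rnf40 ΔSC minus control, under 5 settings, filled where the adjusted p was at most 0.05. Aldoc stayed between −2.08 and −1.77 in these, while Pdk4 ran from −1.25 without mutant replicate 3 to 0.44 in the 4 libraries rich in muscle, and Hk1, Pfkp and Slc16a1 turned positive with total-count scaling.

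Eno3, Pgam2 and Pygm, genes of glycolysis and glycogen use typical of muscle, were high in the mutant library with the high muscle sum and low in the other mutants. Eno3 had 115, 119 and 138 counts in controls and 23, 17 and 142 in mutants. Pgam2, the muscle phosphoglycerate mutase, had 80, 77 and 61 counts in controls and 3, 6 and 77 in mutants. Pygm, the muscle glycogen phosphorylase, had 247, 243 and 232 counts in controls and 38, 28 and 235 in mutants. None of these 3 genes, chosen as muscle isoforms, passed the test, with log2 fold changes of −1.39, −1.72 and −1.65 and adjusted p of 0.267, 0.303 and 0.213. Without mutant replicate 3 all 3 passed, at −2.81 (adjusted p = 5.28e-15), −4.18 (1.36e-04) and −3.08 (0.0131). Pfkm, the muscle phosphofructokinase, had 134, 218 and 226 counts in controls and 209, 101 and 296 in mutants. Its log2 fold change was −0.25 (adjusted p = 0.445), and 0.02 with total-count scaling. Without mutant replicate 3 it was −0.50 (adjusted p = 0.00231). Of the 7 muscle isoform genes tested, 1, Aldoa, was lower, beside 16.2% of all genes tested. Without mutant replicate 3, when 6 could be tested, 5 were lower, beside 1992 of 11499 genes. Without any other single library 1 was lower. Replicate 3 was the mutant library with the high muscle sum, so leaving it out is no separate test of muscle isoforms. Over all genes, chi-square per degree of freedom between replicates was 5.21 for mutant replicates 1 and 3 and 1.78 for control replicates 1 and 3, the ends of the range over pairs.

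**Figure D4:**
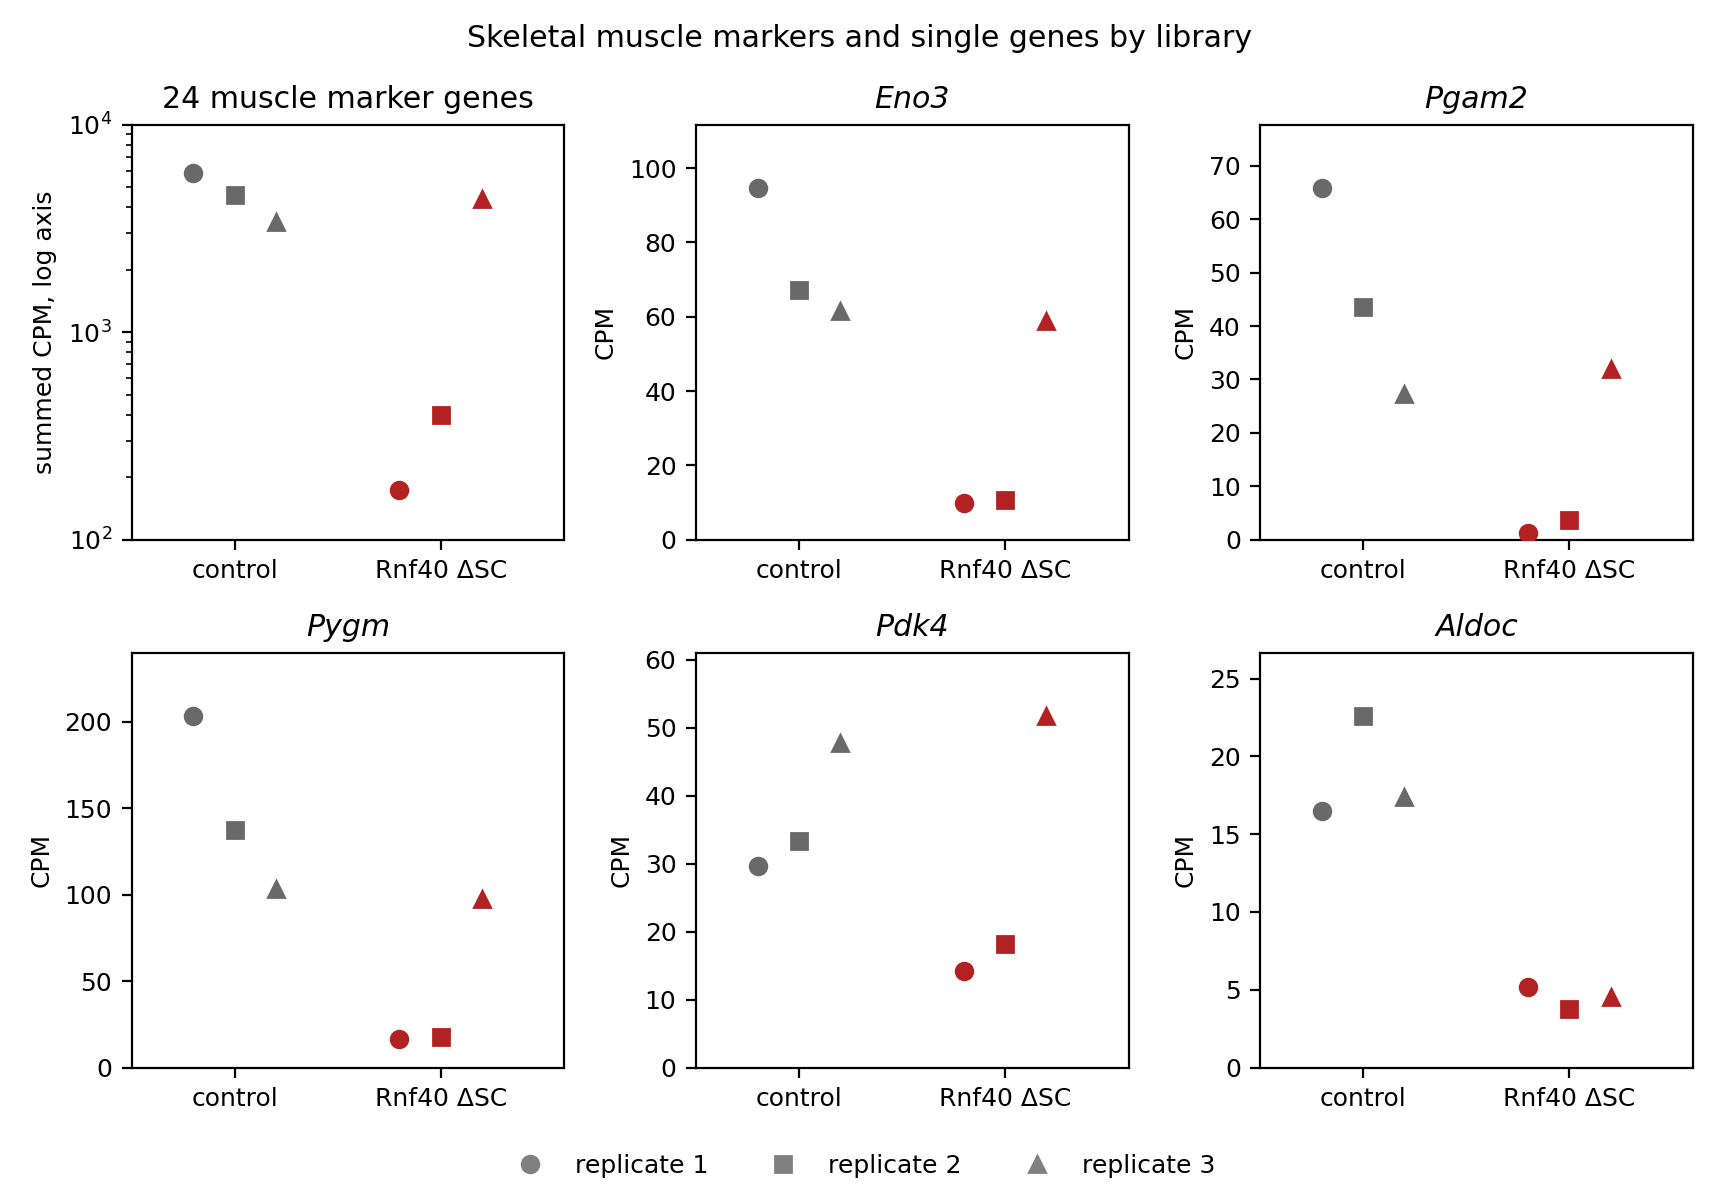
Summed CPM of 24 muscle markers on a log axis, and CPM of Eno3, Pgam2, Pygm, Pdk4 and Aldoc, with a point for each of the 6 libraries. The muscle sum was 173 and 401 CPM in mutant replicates 1 and 2 and 4363 in replicate 3, and Aldoc in replicate 3, at 4.55 CPM, lay with the other mutants.

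Of 25 other enzymes of glycolysis 15 could be tested, 4 were lower and 0 higher by edgeR, beside 16.2% lower and 15.4% higher of all genes, with 1 higher at an unadjusted p of 0.05. These 2 shares also stand beside the counts of each list that follows. DESeq2 had 2 lower and 0 higher. Without control replicate 3, 1 was higher. Their median was −0.36. With total-count scaling 2 were lower and 1 higher, with a median of −0.10 beside 0.27 over all genes. Tpi1, triose phosphate isomerase, had 135, 188 and 199 counts in controls and 129, 74 and 131 in mutants, a log2 fold change of −0.95 (adjusted p = 3.35e-07). Aldoa, the aldolase of muscle and most other tissues, had 300, 412 and 491 counts in controls and 304, 220 and 428 in mutants, and fell by a log2 value of 0.64 (adjusted p = 9.70e-06). For both, every mutant library was below every control in CPM and the call held in the 13 alternatives with more than 1 mutant library. Adpgk, an ADP-dependent glucokinase, was lower by 0.50 (adjusted p = 0.0111), not with total-count scaling (0.237) or DESeq2 (0.0900), within 0.0120 to 0.237 over its alternatives.

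Pfkfb3, which makes the activator of phosphofructokinase, was lower by 0.36 (adjusted p = 0.0370). This call was lost without control replicate 1 (0.0567), control replicate 3 (0.208), mutant replicate 2 (0.128) or mutant replicate 3 (0.102), with DESeq2 (0.190) and in the muscle-rich libraries (0.0521). Total-count scaling moved it to −0.10 (0.607), the end of a range of 0.0187 to 0.607. Pkm, pyruvate kinase, had 131, 203 and 259 counts in controls and 227, 136 and 291 in mutants and did not pass (−0.15, adjusted p = 0.351). It is named here, after its values were seen, as the step before pyruvate. As with Eno1, several symbols that are abundant in most tissues were near 0. Gapdh had 1, 2 and 2 counts in controls and 0, 1 and 4 in mutants, Pgk1 had 3, 2 and 5 against 0, 0 and 1, and Pgam1 had 1, 0 and 0 against 1, 3 and 0. Unique 50-base exon windows made up 49.84% of Gapdh, 31.73% of Pgk1 and 8.869% of Pgam1, while Pklr and Ldhc had 0 counts in all libraries. The steps of Gapdh and Pgk1 had no tested gene in the list, while the mutase, enolase and pyruvate kinase steps were tested through Pgam2, through Eno2 and Eno3, and through Pkm.

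Among the other transporters of glucose and lactate, 8 of 10 could be tested, with 1 lower, 1 higher and a median of −0.22, which was 0.05 with total-count scaling. Without mutant replicate 3, 2 were lower. Slc2a1, encoding the glucose transporter GLUT1, had 188, 255 and 323 counts in controls and 231, 134 and 230 in mutants. These were 148 ± 6.16 and 92.7 ± 8.01 CPM, and every mutant library was below every control. Slc2a1 fell by a log2 value of 0.66 (SE 0.11, adjusted p = 6.48e-06), and the call held in the 13 alternatives with more than 1 mutant library, the muscle covariate included. Bsg, basigin, the chaperone that brings MCT1 to the membrane, had 630, 873 and 1134 counts in controls and 1657, 1204 and 1462 in mutants. Bsg rose by 0.45 (SE 0.09, adjusted p = 1.67e-04) with no overlap, and the call was lost with the muscle covariate (0.29, adjusted p = 0.0542) and in the 4 libraries rich in muscle (0.26, 0.0697), the upper end of a range from 6.73e-08.

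The genes of pyruvate entry into mitochondria moved in both directions. Of 14, 12 could be tested, 5 were lower and 2 higher, with a median of −0.28. With total-count scaling 1 was lower and 4 were higher, with a median of −0.01 beside 0.27 over all genes. The 2 higher, Dld and Pdhb, were 0 without control replicate 3 and 1 without control replicate 1, mutant replicate 1 or mutant replicate 2. Pdha1, the catalytic subunit of pyruvate dehydrogenase, had 186, 296 and 362 counts in controls and 247, 157 and 283 in mutants. It was lower by 0.58 (SE 0.10, adjusted p = 3.26e-05), in each of the 13 alternatives with more than 1 mutant library as well. Dld, its dihydrolipoamide dehydrogenase subunit, was higher (0.37, adjusted p = 0.00486), though not without control replicate 3 (0.31, 0.0608), within 6.98e-06 to 0.0608. Pdk2, a kinase of the same family as Pdk4, had 105, 141 and 192 counts in controls and 105, 73 and 177 in mutants, with mutant replicate 3 nearest the controls. Its log2 fold change of −0.60 (adjusted p = 0.00281) was −0.22 (0.374) with the muscle covariate and −0.19 (0.438) in the 4 libraries rich in muscle and −0.33 (0.103) with total-count scaling, within 3.36e-06 to 0.438. Pcx, pyruvate carboxylase, was lower by 0.59 (adjusted p = 9.18e-04), and not with the muscle covariate (0.0536), in the muscle-rich libraries (0.0552) or with total-count scaling (0.0620), within 4.64e-04 to 0.0620.

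Named after their values were seen, to complete those counts, were Pdk1 (−0.62, adjusted p = 0.0113), the phosphatase gene Pdp2 (−0.96, 0.0155) and Pdhb (0.36, 0.0249), the other catalytic subunit of pyruvate dehydrogenase. Pdk1 lost its call in 6 alternatives, without control replicate 3 (0.0661) or mutant replicate 1 (0.0558), with the muscle covariate (0.0707), in the muscle-rich libraries (0.0647), with DESeq2 (0.0946) and with total-count scaling (0.142), within 0.0113 to 0.142. Pdp2 lost it without control replicate 2 (0.155) or mutant replicate 3 (0.0726), with DESeq2 (0.119) and with total-count scaling (0.0717), within 0.00813 to 0.155. Pdhb lost it without control replicate 1 (0.0710), control replicate 3 (0.0971), mutant replicate 1 (0.0600) or mutant replicate 2 (0.110), with DESeq2 (0.120), with the muscle covariate (0.343) and in the muscle-rich libraries (0.424), within 1.23e-04 to 0.424. Of the 4 pyruvate dehydrogenase kinases, Pdk1 and Pdk2 thus passed as lower with all 6 libraries, and Pdk4 did only when mutant replicate 3 was left out. Pdk3, also named after its values were seen, had 19, 37 and 44 counts in controls and 58, 48 and 66 in mutants, with every mutant above every control in CPM. Its log2 fold change of 0.52 (adjusted p = 0.0558) did not pass, and it passed as higher with total-count scaling (0.79, 0.00264), with at least 10 counts in every library (0.0459) and with the replicate block (0.0494), within 0.00264 to 0.229.

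**Figure D5:**
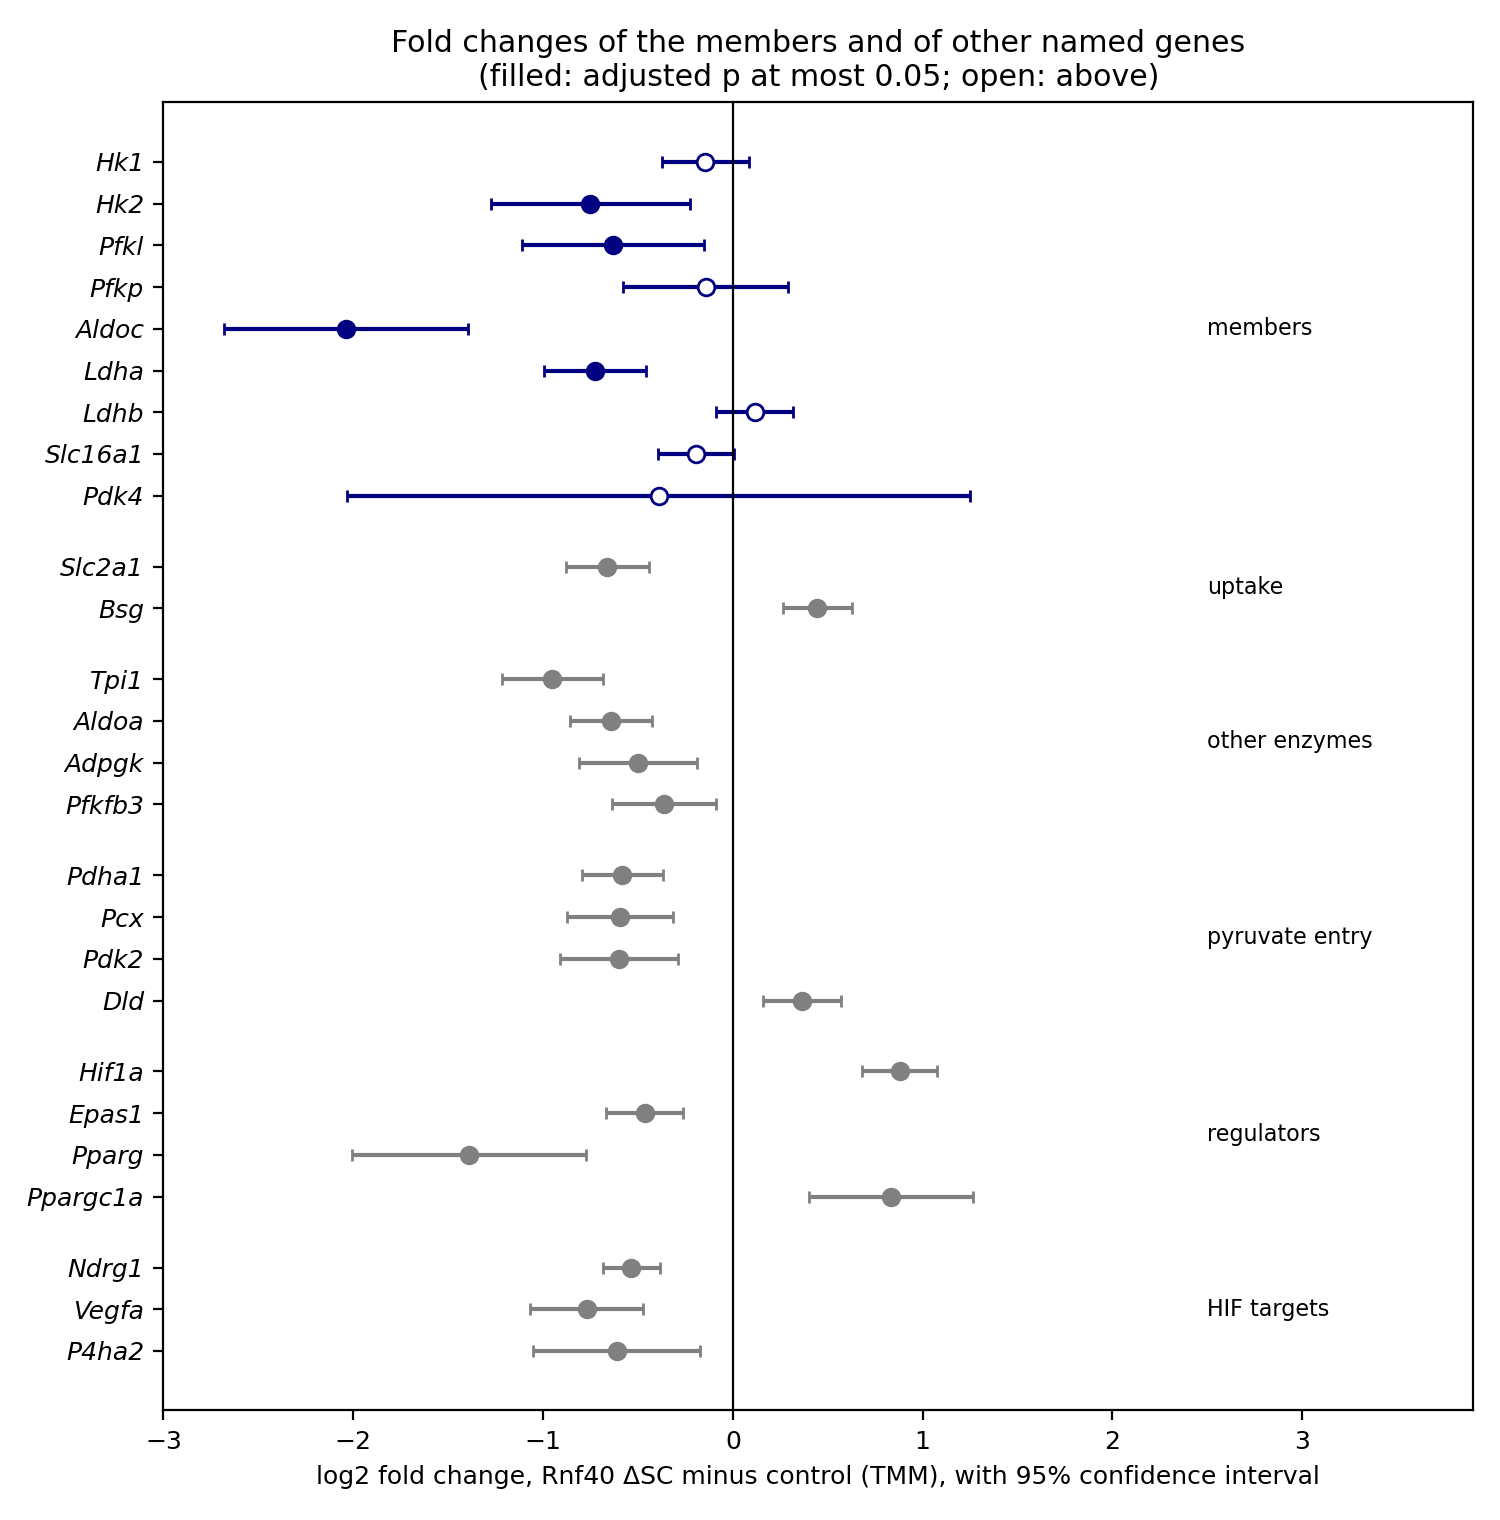
Log2 fold changes with 95% confidence intervals for 9 members and for named genes of uptake, other enzymes, pyruvate entry, regulators and targets of hypoxia-inducible factors, TMM scaling, filled where the adjusted p was at most 0.05. Aldoc at −2.04 was lowest and Hif1a at 0.88 highest, and Hk1, Pfkp and Slc16a1, negative here, were positive with total-count scaling.

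Regulators of glycolysis were tested in 18 of 18 cases, with 2 lower, 2 higher and a median of 0.02. With total-count scaling 1 was lower and 8 were higher, with a median of 0.29 beside 0.27 over all genes. Without mutant replicate 3, 4 were lower. Hif1a, the hypoxia-inducible factor that drives glycolytic genes when stabilised, had 215, 280 and 367 counts in controls and 646, 528 and 749 in mutants. It was higher by 0.88 (SE 0.10, adjusted p = 3.58e-09), and all mutant libraries were above all controls. Epas1, encoding its relative HIF-2α, was lower by 0.46 (adjusted p = 3.97e-04), not with total-count scaling (0.128) or in the muscle-rich libraries (0.0697), within 2.09e-05 to 0.128. Pparg, the master regulator of fat cells, was lower by 1.39 (adjusted p = 4.73e-04), and Ppargc1a, a coactivator of mitochondrial genes, was higher by 0.83 (adjusted p = 0.00238).

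Of 12 known targets of hypoxia-inducible factors outside the pathway, 10 were tested, 3 were lower and 0 higher by edgeR, beside 16.2% lower and 15.4% higher of all genes. DESeq2 had 2 lower and 0 higher. At an unadjusted p of 0.05, with RLE scaling, with at least 10 counts in every library (8 tested) or without mutant replicate 3, 1 was higher. Their median was −0.14. With total-count scaling 2 were lower and 1 higher, with a median of 0.13. Ndrg1, a gene also known for an inherited demyelinating neuropathy, was lower by 0.54 (adjusted p = 4.32e-07) and Vegfa, a vascular growth factor, by 0.77 (8.12e-05). P4ha2, a collagen hydroxylase subunit, was lower by 0.61 (adjusted p = 0.0287), a call lost without control replicate 2 (0.0548), control replicate 3 (0.266), mutant replicate 1 (0.0756) or mutant replicate 2 (0.0833). It was also lost with the muscle covariate (0.136), in the muscle-rich libraries (0.225), with DESeq2 (0.192) and with total-count scaling (0.216), within 0.0165 to 0.266. Hif1a mRNA was thus higher, while of the 10 targets tested 3 were lower, 0 higher and 7 did not pass. Higd1a, named after its values were seen, passed as higher in 4 of 14 alternatives, with log2 fold changes of 0.14 to 0.83 over them. A link between Hif1a mRNA and these targets was not tested. HIF-1α protein was not analysed here.

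Pdk4 is a known target of PPAR factors, and 10 of 12 other such targets were tested, with 4 lower, 2 higher and a median of −0.25. With total-count scaling 2 were lower and 3 higher, with a median of 0.02. Without control replicate 3, 2 were lower. Cpt1a, which admits fatty acids to mitochondria, was higher by 0.62 (adjusted p = 6.97e-05). Lpl, lipoprotein lipase, was lower by 0.66 (adjusted p = 5.97e-06) and Ucp2 by 0.73 (4.99e-05). Acadm (−0.54, adjusted p = 0.00309), named after its value was seen, lost the call without control replicate 3 (0.0554), with total-count scaling (0.132) and in the muscle-rich libraries (0.0609), within 0.00208 to 0.132.

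The cell types of the nerve were read from marker lists, since any of them could carry the members' RNA. Of 8 myelinating Schwann cell markers 7 were lower and 1 was higher. The 1 higher was Egr2, named after its value was seen (0.36, adjusted p = 0.00579), which did not pass without control replicate 3 (0.0873), within 7.93e-06 to 0.0873. Schwann lineage markers were lower in 5 of 6 and higher in 1, with Sox10 the most abundant (−0.79). By the study's staining for Sox10, not analysed here, Schwann cells were a similar share of cells in both groups at this age. Lower marker RNA is therefore not read as fewer Schwann cells. The 1 lineage marker that was higher was Foxd3 (0.90, adjusted p = 4.60e-05), also named after its value was seen. The 8 myelin markers, which define the labelled tissue, were thus present in all libraries.

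Of adipocyte markers 4 of 8 were lower, and 3 with total-count scaling, with Fabp4 the most abundant, at summed levels of 1308, 966 and 1630 CPM in controls and 1001, 928 and 762 CPM in mutants. Endothelial markers, led by Cdh5, were lower in 5 of 8, in 2 with the muscle covariate and in 1 with total-count scaling. Their median log2 fold change was −0.54, and −0.30 in the 4 libraries rich in muscle. They summed to 861, 754 and 860 CPM in controls and 544, 557 and 696 CPM in mutants, highest among mutants in the library rich in muscle. Macrophage markers, led by Csf1r, were lower in 6 of 7 tested, in 3 with DESeq2 and in 2 with total-count scaling, at sums of 395, 367 and 400 CPM in controls and 261, 254 and 273 CPM in mutants. The study's staining for Iba1, by which macrophages were a larger share of cells in mutants at this age, was not analysed here, and marker RNA is not a count of cells. Perineurial and fibroblast markers, led by Col3a1, were lower in 6 of 8 and higher in 1, Tjp1 (0.47, adjusted p = 1.22e-04), named after its value was seen, and with total-count scaling 2 were lower and 2 higher. Of adipocyte, endothelial and macrophage markers 0 were higher by edgeR, 0 at an unadjusted p of 0.05 and 0 by DESeq2. Neuronal markers, led by Uchl1, had 5 of 8 tested and 1 higher, Snap25 (1.50, adjusted p = 0.00375), named after its value was seen, and 0 lower, with 1 lower at an unadjusted p of 0.05 or without mutant replicate 1, and 0 by DESeq2. Snap25 did not pass with DESeq2 (0.0526), within 5.34e-04 to 0.0526. Of 6 erythroid markers, 4 globin genes had 0 counts in all libraries and Alas2 was the 1 tested, with 0 lower and 0 higher, also at an unadjusted p of 0.05 and by DESeq2, and it was lower without mutant replicate 3 (−1.30). The part of these cell types in the members' differences was not tested.

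Rnf40 itself had 82, 116 and 165 counts in controls and 109, 75 and 118 in mutants, a log2 fold change of −0.54 (SE 0.14, adjusted p = 0.00242), lost with total-count scaling (−0.27, 0.120), the end of a range from 0.00235. In the study's allele loxP sites flank only part of the exons, and the counts are per gene in whole nerve. Reads of other exons and of untargeted cells are thus included, and the counts do not measure how complete the deletion was. By the study's staining, not analysed here, Schwann cells held no Rnf40 protein at birth. Rnf20, the partner of Rnf40, was higher by 0.44 (adjusted p = 0.00998), a call lost without control replicate 3 (0.0870) or mutant replicate 1 (0.0570) and with DESeq2 (0.0654). It was also lost with the muscle covariate (0.22, 0.391) and in the muscle-rich libraries (0.18, 0.501), within 5.82e-05 to 0.501.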

How the data were processed

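The deposited values are read counts per gene symbol made by the authors, by alignment to mm9 and HTSeq-count according to their methods, while the labels list Bowtie2 and the builds mm10 and mm9. Positions and unique windows given on mm9 rest on the methods. Library kits differ too, NEB Next Ultra in the labels and a directional NEXTFLEX kit in the methods, and the strand setting is not stated. Counts of 3 control and 3 Rnf40 ΔSC libraries were fitted in edgeR 4.0.16 under R 4.3.3, with filterByExpr, TMM scaling, genotype as the only term, the robust quasi-likelihood test and Benjamini-Hochberg adjustment over all genes tested. DESeq2 1.42.0 served as an alternative. The code was tested on simulated data.

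The members and lists were chosen with earlier results of these data known. All members were named, with up to 4 genes of smallest p per pathway or regulator list among those past an adjusted p of 0.05, the most abundant gene of each cell type list, Rnf40 and Rnf20. Exon lengths, positions and the uniqueness of 50-base windows came from GENCODE on mm9, where 215 of 219 list genes matched 1 gene. Promoters were matched by symbol in RefSeq, GRCm38.p6, for 10 of 10 members.

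Alternatives were RLE and total-count scaling, DESeq2, other count filters, the replicate block, a muscle covariate and leaving out each library. The comparison of 4 libraries rich in muscle was added after seeing the data, and its lone mutant library is assumed to vary like the controls.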

Additional observations from a re-analysis of the deposited data

How the results depend on the processing

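Of the members' log2 fold changes under the alternatives, 100 kept direction and side of the threshold, 15 no longer passed, 5 newly passed and 5 reversed, with passes in the 4 libraries rich in muscle included. The reversed values were Hk1 at 0.12, Pfkp at 0.13 and Slc16a1 at 0.075 with total-count scaling, and Pdk4 at 0.36 with the muscle covariate and 0.44 in the 4 libraries rich in muscle, an alternative chosen after seeing the data. With TMM the first 3 genes lay at −0.15, −0.14 and −0.19, and total-count scaling moved the median of all genes by 0.27 (log2). Their change of sign thus came with the scale. The 8 myelinating Schwann cell markers summed to 148706 CPM in controls and 38032 CPM in mutants (TMM, means of 3 libraries). Their part in the shift was not tested, nor was the cause of the Pdk4 reversals.

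Total-count scaling gave 2 members lower and 1 higher, with 880 genes lower and 3766 higher. DESeq2 gave 2 members lower, with 1178 genes lower and 1110 higher. With at least 10 counts in every library 0 members passed the study's limits, because Aldoc, with 6 counts in mutant replicate 2, was no longer tested. The muscle covariate gave 3 members lower, with 1281 genes lower and 1144 higher. The muscle-rich libraries put 3 members, Aldoc, Ldha and Slc16a1, under the threshold, with 1263 genes lower and 1119 higher, which are not read as calls since 1 mutant library takes its spread from controls.

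Leaving out single libraries gave 2 to 5 members lower and 1 to 3 past the study's limits, 3 without mutant replicate 3, when Hk2 and Pdk4 joined Aldoc.

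With the replicate block, which pairs libraries by number, 4 members were lower, with 1837 genes lower and 1727 higher. Libraries of the same number had correlations of −0.095, −0.015 and −0.062 between their deviations, and the labels name no pairing.

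Depth limits members with few reads, and intervals and floors cover counting error only. The muscle covariate leaves 3 residual degrees of freedom. Pools of nerves hide variation between mice.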

Other observations

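Of 8 genes of the pentose phosphate path 2 were lower, beside 16.2% of all genes tested, and 0 higher by edgeR, beside 15.4%, 0 higher also at an unadjusted p of 0.05 and by DESeq2, with a median of −0.13 that was 0.13 with total-count scaling. Tkt, transketolase, had 384, 476 and 672 counts in controls and 275, 203 and 347 in mutants, a log2 fold change of −1.18 (adjusted p = 5.21e-12). G6pdx, the entry enzyme, had 49, 72 and 117 counts in controls and 67, 32 and 59 in mutants (−0.86, adjusted p = 3.32e-04). Both calls held in the 13 alternatives with more than 1 mutant library.

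Of 12 glycogen genes tested of 13, 8 were lower and 0 higher by edgeR, beside 16.2% lower and 15.4% higher of all genes, 0 higher also at an unadjusted p of 0.05 and by DESeq2, with a median of −0.75. With total-count scaling 5 were lower, and with the muscle covariate 3. In the 4 libraries rich in muscle the median was −0.50. The muscle sums were 5875, 4594 and 3393 CPM in controls and 173, 401 and 4363 CPM in mutants. Gaa, lysosomal glucosidase (−0.63, adjusted p = 5.61e-04), and Gbe1, the branching enzyme (−1.03, 6.06e-04), held in the same 13 alternatives. Pgm2, a phosphoglucomutase (−0.97, 2.26e-04), did not pass with the muscle covariate (0.0525) or in the muscle-rich libraries (0.0741), within 1.98e-07 to 0.0741.

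Of 11 genes of the shuttles that carry NADH equivalents, 5 were lower and 1 higher, beside the same shares of all genes, with a median of −0.27. With total-count scaling 5 were lower and 2 higher, with a median of −0.00. Without mutant replicate 3, 2 were higher. Gpd1, cytosolic glycerol phosphate dehydrogenase, had 245, 344 and 472 counts in controls and 134, 128 and 239 in mutants (−1.36, adjusted p = 1.57e-07). Its relatives Gpd1l (−0.78, 5.52e-07) and Gpd2 (−0.83, 2.22e-04) were lower, as were the aspartate and glutamate carriers Slc25a13 (−1.51, 4.63e-04) and Slc25a12 (−0.76, 0.00239). Mdh2, mitochondrial malate dehydrogenase, was higher (0.44, 0.00285), not with the muscle covariate (0.248) or in the muscle-rich libraries (0.195), within 5.71e-06 to 0.248. Slc25a12 and Mdh2 were named after their values were seen.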
